A study of Mus musculus with 9 samples.

Results

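The 10 genes described here encode precursors of neuropeptides of the retina and were chosen by symbol: *Vip*, *Npy*, *Sst*, *Tac1*, *Penk*, *Cck*, *Crh*, *Cartpt*, *Adcyap1* and *Pdyn*. All 10 were found among the 25239 gene names of each table. They were measured by bulk RNA-Seq of whole retinas from mice at P42 on a C57BL/6J background, in 3 libraries of +/+ retinas, 3 of Cre/+ retinas and 3 of Cre/Cre retinas, with a pair of retinas per library. The +/+ animals carry no knock-in allele. Cre/+ animals carry 1 and Cre/Cre animals 2 alleles of *Rbpms*-CreERT2, in which a P2A peptide and the tamoxifen-inducible recombinase CreERT2 follow the last coding codon of *Rbpms*. RBPMS is an RNA-binding protein that marks retinal ganglion cells (RGCs), so the recombinase is made wherever *Rbpms* is, which includes smooth muscle. No treatment is given by the labels beyond genotype, and the allele had been made with CRISPR/Cas9 and bred to C57BL/6J mice. The comparison asks whether carrying the knock-in changes the retinal transcriptome, here for the peptide precursors.

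A neuropeptide is cut from a larger precursor protein inside dense-core granules, released alongside a fast transmitter, and read by receptors that couple to G proteins. In the retina most peptides are made by small sets of amacrine cells, the inhibitory interneurons of the inner retina, and some also by RGCs. Whole-retina RNA therefore dilutes each precursor with RNA from the far more numerous photoreceptors, and in such bulk samples fewer cells of a type cannot be told apart from less RNA per cell.

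The libraries held between 4.05 and 4.65 aligned gigabases, computed from coverage and FPKM. Their defining tissue markers were present, with 41239 to 49920 summed TPM (a level per transcript length, scaled to the library) for 8 photoreceptor genes and 1929 to 2266 summed TPM for 13 amacrine genes. The +/+ libraries held 38.4 to 43.4 TPM of *Rbpms* itself, the Cre/+ libraries 31.3 to 33.1 TPM and the Cre/Cre libraries 19.1 to 24.2 TPM. Some libraries stood apart in ways that touch the peptide genes. In Cre/Cre replicate 1, 9.21% of the TPM fell on the ribosomal RNA precursor Rn45s, a share that reached 0.336% at most elsewhere, and the median ratio of all genes in that library was 0.918. The summed TPM of lens genes and that of immediate early genes were highest in Cre/Cre replicate 2. *Xist*, the RNA of the inactive X chromosome, was above 100 TPM in 6 libraries, of which 3 were +/+, 2 Cre/+ and 1 Cre/Cre, so that sex and genotype were partly confounded.

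The levels of the 10 precursors spanned from 189 TPM for *Cartpt* to 2.88 TPM for *Crh*, as means over 9 libraries. *Cartpt*, which encodes the CART peptides and is used as a marker of direction-selective RGCs, was the highest in all 9 libraries and made up between 48.3% and 55.4% of the summed TPM of the 10 genes. *Tac1*, the precursor of substance P and neurokinin A, followed with 42.8 ± 5.55 TPM (SD, n = 9 libraries of all genotypes). *Cck*, the cholecystokinin precursor, had 33.9 ± 6.21 TPM and *Npy*, the neuropeptide Y precursor, had 29.3 ± 2.37 TPM. *Vip*, the precursor of vasoactive intestinal peptide, which marks a group of amacrine cells, had 22.4 ± 4.65 TPM. Next came *Penk* (enkephalins), *Sst* (somatostatin) and *Pdyn* (dynorphins), with means of 13.1, 13.0 and 12.8 TPM. *Adcyap1*, which encodes PACAP, had 4.46 ± 1.1 TPM, and *Crh*, the corticotropin-releasing hormone precursor, had 2.88 ± 0.922 TPM. These levels, compared per length, placed *Cartpt* above 94.1% of the 15198 genes with a mean of at least 1 TPM and *Crh* above 11.8% of them.

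Neighbours in this order were not all separated. *Cartpt* exceeded *Tac1* in 9 of 9 libraries and *Pdyn* exceeded *Adcyap1* in 9 of 9. *Tac1* exceeded *Cck*, *Npy* exceeded *Vip*, *Vip* exceeded *Penk*, and *Adcyap1* exceeded *Crh*, in 8 libraries each, and *Cck* exceeded *Npy* in 7. The middle of the order was not resolved: *Penk* exceeded *Sst* in 1 library only, and *Sst* exceeded *Pdyn* in 5. Without Cre/Cre replicate 2, the mean of *Penk* over the other 8 libraries was 9.22 ± 1.24 TPM, below *Sst* and *Pdyn*. A base was covered on average by 192 to 258 reads in *Cartpt* and by 1.57 to 5.54 reads in *Crh*, so the values of *Crh* rest on the fewest reads.

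**Figure D1:**
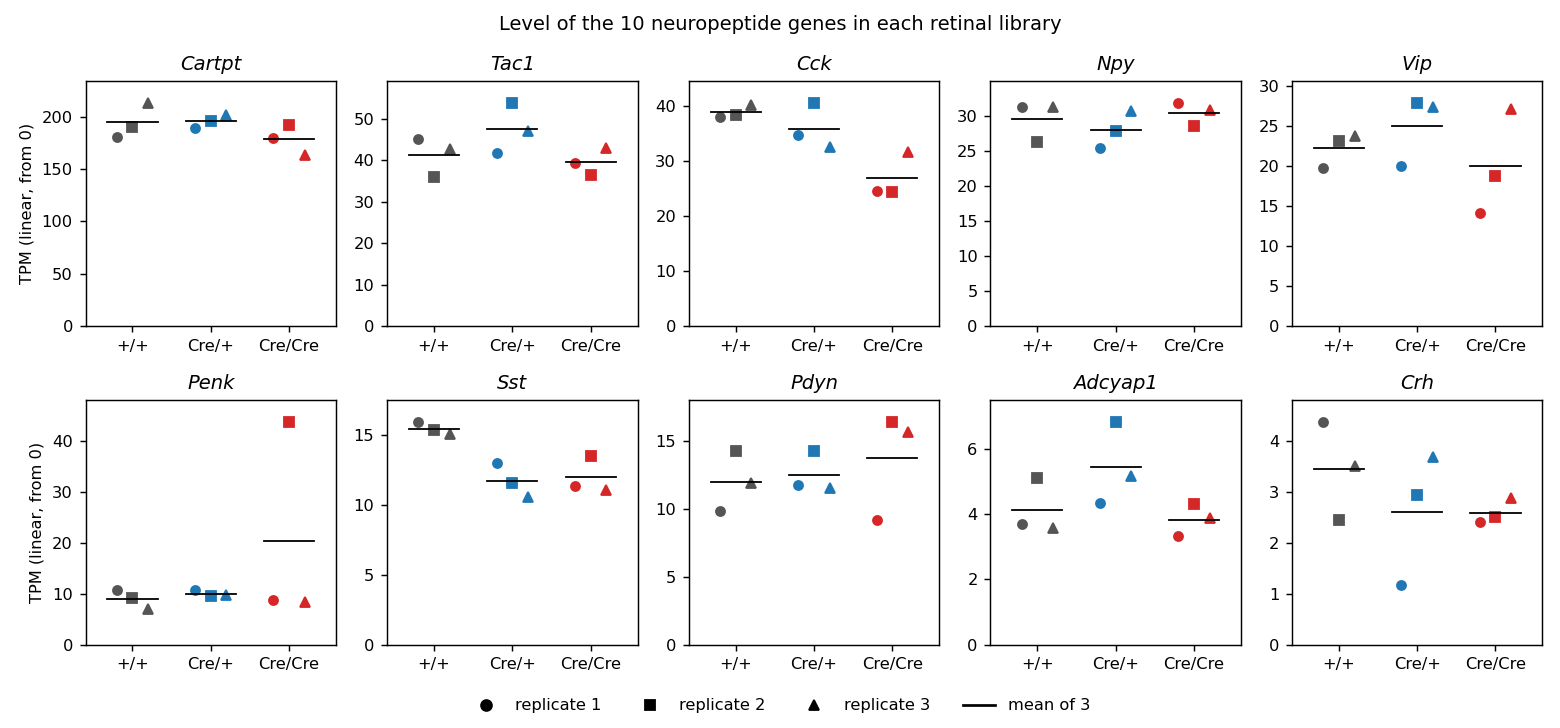
TPM of the 10 neuropeptide genes (vertical axis, linear and starting at 0) in the 3 libraries of each genotype (horizontal axis), with symbols for replicates and a line for the mean of 3. *Sst* and *Cck* are the genes whose Cre/Cre libraries all lie below all +/+ libraries, and *Penk* reaches 43.7 TPM in a single Cre/Cre library.

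The genes differed in how steady they were. *Cartpt* and *Npy* varied least, with coefficients of variation over the 9 libraries of 7.54% and 8.09%, and their SD on the log2 scale ranked at percentiles 29.1 and 33.5 of all genes tested. *Tac1* (13.0%), *Sst* (15.6%), *Cck* (18.3%), *Pdyn* (19.8%), *Vip* (20.7%) and *Adcyap1* (24.5%) followed, and the highest value of *Crh* was 3.77 times its lowest. *Penk* varied most, at 88.5% and percentile 98.5, with 1 library far above the other 8. The SD of *Vip* within genotypes stood at percentile 90.4, whereas those of *Sst* and *Cck* within genotypes stood at 40.2 and 62.5.

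No peptide precursor passed an adjusted p of 0.05 between any pair of genotypes or along the number of knock-in alleles. The test was limma on log2(TPM + 1), in which a difference of a low gene is understated, with Benjamini-Hochberg adjustment over all 15198 genes. In Cre/+ against +/+, 0 of 10 were called, where 0.00658% of all genes tested were. In Cre/Cre against +/+, 0 of 10 were called against 0.00658% of all genes, and in Cre/Cre against Cre/+ 0 of 10 against 0.0132%. Along the number of alleles, 0 of 10 were called against 0.00658%. Without adjustment, at p under 0.05, 1, 2 and 3 of the 10 genes were lower in the genotype with more alleles in these pairs, and 2 were lower along the number of alleles. Of all genes, 5.82%, 5.39% and 4.2% were lower at that limit in the 3 pairs, and 4.82% along the alleles. None of the 10 was higher at that limit, where 4.9%, 1.58% and 2.38% of all genes were, and 1.42% along the alleles. With the TPM rescaled by each library's median ratio, 1, 2 and 1 of the 10 were lower at that limit, beside 7.81%, 4.7% and 4.11% of all genes. None was higher, beside 8.03%, 3.62% and 4.33% of all genes. Higher values without overlap between the groups also occurred for none of the 10, and for 11.9%, 2.7% and 4.76% of all genes.

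The intervals say how large a difference could have gone unseen. For 9 of the 10 genes, all except *Penk*, the 95% confidence interval of every pairwise difference lay within a 2-fold change either way on the log2(TPM + 1) scale. Each gene's spread was pooled over all 9 libraries, so Cre/Cre replicate 2 also widens the interval of *Penk* between Cre/+ and +/+ (-1.32 to 1.64). The *Penk* values of these 2 genotypes lay between 6.98 and 10.7 TPM. The median difference over the 10 genes was 0.037 (log2) in Cre/+ and -0.10 in Cre/Cre, each against +/+, beside 0.0014 and -0.024 over all genes tested. The median in Cre/Cre was -0.026 without Cre/Cre replicate 1, where all genes had 0.024, and -0.16 without Cre/Cre replicate 2, where all genes had -0.047. The median in Cre/+ changed sign, to -0.039 without +/+ replicate 1 and to -0.0099 without Cre/+ replicate 2. Summed over the 10 genes, the +/+ libraries had 371 ± 18.3 TPM, the Cre/+ libraries 374 ± 20.3 TPM and the Cre/Cre libraries 348 ± 29.6 TPM (SD, n = 3 each).

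**Figure D2:**
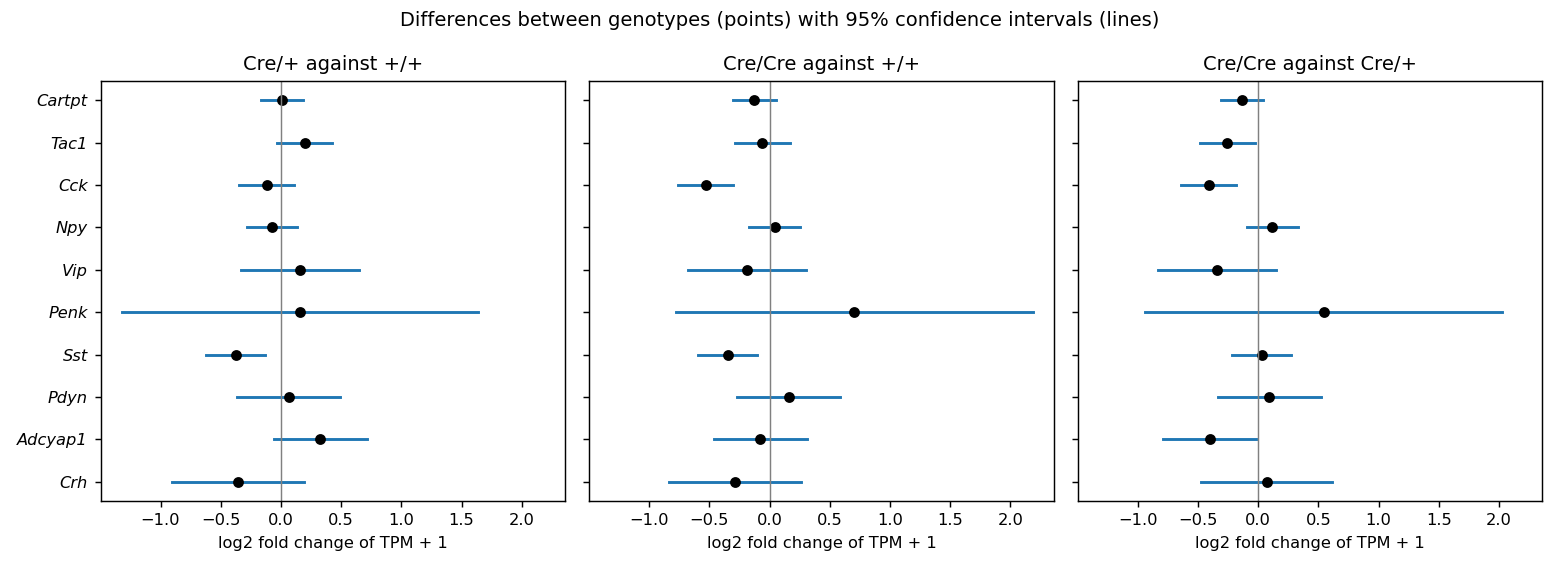
Log2 fold change of TPM + 1 (horizontal axis) for the 10 genes in 3 pairs of genotypes, as points with 95% confidence intervals from limma. The interval excludes 0 for *Sst* in the first panel, for *Cck* and *Sst* in the second, and for *Tac1*, *Cck* and *Adcyap1* in the third, and that of *Penk* is the widest in each.

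*Cck* came closest to the threshold. The gene lies on chromosome 9 of mm10, from 121489824 to 121495694 on the minus strand, and its peptide acts on CCKBR and CCKAR. In TPM, its +/+ values were 38.1, 38.4 and 40.3, its Cre/+ values 34.7, 40.5 and 32.5, and its Cre/Cre values 24.5, 24.4 and 31.7. The Cre/Cre values lay below those of both other genotypes with no overlap, while +/+ and Cre/+ overlapped. The groups did not overlap, with lower values in Cre/Cre than in +/+, for 8.05% of all genes tested. Its mean in Cre/Cre was 69.0% of the +/+ mean. The difference was -0.53 on the log2 scale (SE 0.11, 95% interval -0.76 to -0.30), with adjusted p = 0.181 in limma. Its p ranked 13 among the 15198 genes. Against Cre/+ the difference was -0.41 (interval -0.64 to -0.18, adjusted p = 0.5 in limma). The trend was -0.26 per allele (interval -0.39 to -0.14, adjusted p = 0.391 in limma).

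The direction of *Cck* was the same in every setting tried and its call was not. With FPKM in place of TPM the adjusted p in limma was 0.0484, and it was between 0.102 and 0.606 under the other 10 settings and between 0.0656 and 0.633 when 1 library was left out. Both of the libraries at about 24 TPM, Cre/Cre replicates 1 and 2, are ones that stood apart. Without replicate 1 the difference from +/+ was -0.47 and without replicate 2 it was -0.47. Marker lists of most retinal cell classes lay below 0 in the same comparison, with 13 of 13 amacrine genes below 0 (median -0.067) and 12 of 12 RGC genes below 0 (median -0.28, with *Rbpms* alone passing the test), where 57.7% of all genes tested were below 0. So did 8 of 8 photoreceptor genes (median -0.085), 6 of 6 bipolar genes (median -0.12), 6 of 6 Mueller glia genes (median -0.10) and 3 of 4 horizontal cell genes (median -0.11). TPM adds up to the same total in each library, and Rn45s took 9.21% of it in Cre/Cre replicate 1. The median ratio of all genes there was 0.918. The sum of each of these marker classes was lowest in that library. It was 41239 TPM there for photoreceptor genes (next lowest library 45925), 889 for bipolar (1039), 4050 for Mueller glia (4403) and 89.6 for horizontal cell genes (99.3). Counts of these classes under other settings are not given here. With median-ratio scaling the amacrine and RGC counts were 11 of 13 and 12 of 12, and the share of all genes 49.0%. Without Cre/Cre replicate 1 they were 9 of 13 and 11 of 12, and the share of all genes 43.8%. The amacrine and RGC medians were -0.040 and -0.25 with the scaling, where all genes had 0.0031. They were -0.020 and -0.17 without that library, where all genes had 0.024. In the main fit, 3 of 13 amacrine and 9 of 12 RGC genes were lower in Cre/Cre than in +/+ at unadjusted p under 0.05 in limma. Of all genes, 5.39% were. In summed TPM, the amacrine genes lay at 2216 to 2266 in +/+, 2118 to 2217 in Cre/+ and 1929 to 2151 in Cre/Cre. The RGC genes lay at 1844 to 1919, 1755 to 1814 and 1351 to 1646. None of the amacrine and RGC markers was at 0, and the part of these lists in the level of *Cck* was not tested.

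*Sst* was lower in both knock-in genotypes by similar amounts without passing the test. Somatostatin is an inhibitory peptide of sparse wide-field amacrine cells. The gene lies on chromosome 16 of mm10, from 23889581 to 23890844 on the minus strand. It had 15.9, 15.4 and 15.1 TPM in +/+, 13.0, 11.6 and 10.6 TPM in Cre/+, and 11.3, 13.5 and 11.1 TPM in Cre/Cre. The +/+ libraries were the highest 3 and close together, and they overlapped with neither knock-in genotype. Lower values without overlap occurred for 10.3% of all genes in Cre/+ and 8.05% in Cre/Cre. The means were 75.8% and 77.4% of the +/+ mean. The difference from +/+ was -0.38 in Cre/+ (interval -0.62 to -0.13, adjusted p = 0.377 in limma) and -0.35 in Cre/Cre (interval -0.60 to -0.10, adjusted p = 0.595 in limma). Cre/Cre and Cre/+ differed by 0.028 (interval -0.22 to 0.28). The trend was -0.17 per allele (adjusted p = 0.745 in limma). The 2 contrasts with +/+ share the same 3 control libraries, so that they are not independent.

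Other measures moved with *Sst*, and their part in its level was not tested other than by covariates. The summed TPM of 10 immediate early genes, which are transcribed within minutes of neuronal activity or handling, was 325, 318 and 358 in +/+, 395, 237 and 231 in Cre/+, and 233, 529 and 211 in Cre/Cre. The 5 libraries with the highest sums, which are the 3 of +/+, Cre/+ replicate 1 and Cre/Cre replicate 2, were also the 5 with the highest *Sst*. Within each knock-in genotype the library with the most immediate early RNA had the most *Sst*. The 5 libraries do not rank alike by both measures, since the highest sum, in Cre/Cre replicate 2, came with 13.5 TPM of *Sst*. With the sum as a covariate, a setting chosen after seeing the data, the differences from +/+ were -0.32 in Cre/+ (adjusted p = 0.42 in limma) and -0.31 in Cre/Cre (adjusted p = 0.563 in limma). All 5 libraries also had *Xist* above 100 TPM. So did Cre/+ replicate 2, which had 11.6 TPM of *Sst* and an immediate early sum of 237. With *Xist* as a covariate the difference in Cre/Cre was -0.20 (adjusted p = 0.973 in limma, and no longer under 0.05 without adjustment), and that in Cre/+ was -0.31 (adjusted p = 0.473 in limma). The circadian gene *Per1* had 97.5, 95.6 and 103 TPM in +/+, 78.1, 68.4 and 65.4 TPM in Cre/+, and 74.2, 92.4 and 52.5 TPM in Cre/Cre. Its 5 highest values were in the same 5 libraries. Of 12 circadian genes, 8 lay below 0 in Cre/+ and 9 in Cre/Cre, beside 49.6% and 57.7% of all genes. The part of *Per1* in the level of *Sst* was not tested. Sex, immediate early RNA, *Per1* and genotype cannot be fully told apart in 9 libraries.

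**Figure D3:**
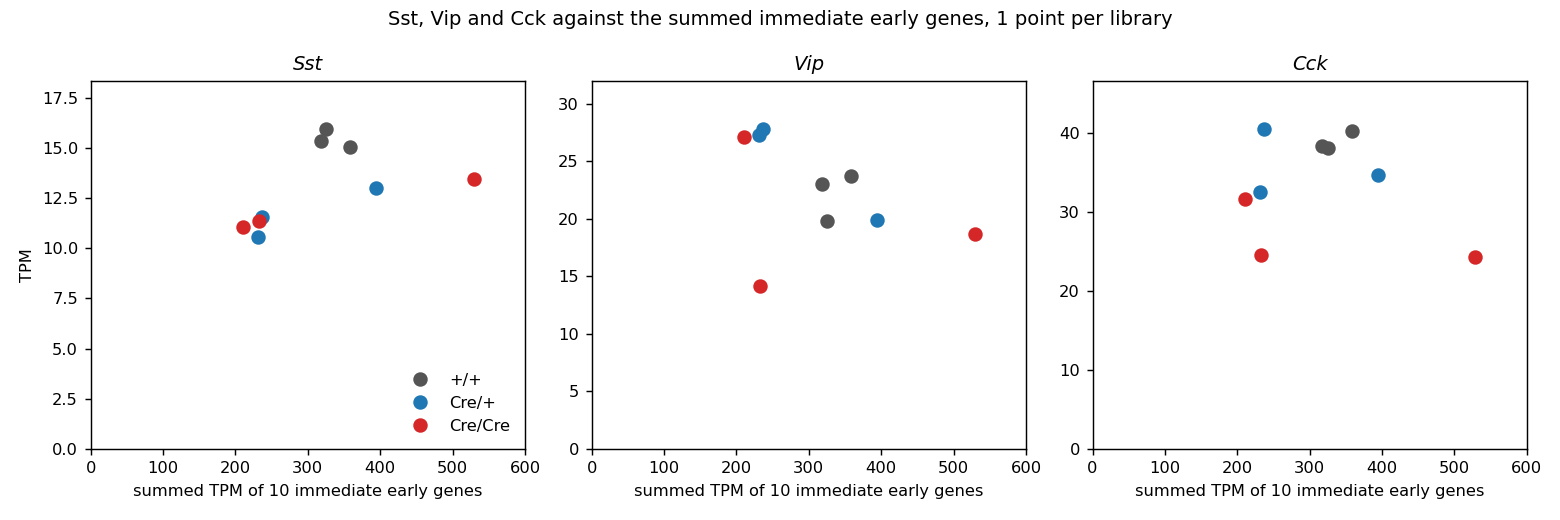
TPM of *Sst*, *Vip* and *Cck* (vertical axes, from 0) against the summed TPM of 10 immediate early genes (horizontal axis), with 1 point per library coloured by genotype. The 5 libraries above 300 summed TPM hold the 5 highest values of *Sst*, and the 3 highest values of *Vip* are at sums below 240.

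*Vip* had 19.8, 23.1 and 23.7 TPM in +/+, 19.9, 27.8 and 27.3 TPM in Cre/+, and 14.2, 18.7 and 27.1 TPM in Cre/Cre. The Cre/Cre libraries held both the lowest value and one of the highest, and all genotypes overlapped. The difference from +/+ was 0.16 in Cre/+ (interval -0.33 to 0.64) and -0.19 in Cre/Cre (interval -0.67 to 0.30), with adjusted p = 0.816 and 0.931 in limma. The 3 libraries above 27 TPM, which were Cre/+ replicates 2 and 3 and Cre/Cre replicate 3, had immediate early sums of 237, 231 and 211. Cre/Cre replicate 1, with the lowest *Vip*, had a sum of 233. It is also the library with 9.21% Rn45s, and without it the difference from +/+ was 0.027. Without Cre/Cre replicate 3 it was -0.42.

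The letters upstream of some of these genes are shown because *Sst* and *Cck* had Cre/Cre values below all +/+ values, *Cartpt* was the most abundant and shared the full element described next with *Sst*, and *Vip* is shown beside *Sst* and *Cck* in the plot against immediate early genes. The cyclic AMP response element (CRE) is bound by CREB and its relatives, which link activity to transcription, and the somatostatin gene is the classic example. RefSeq gave starts on GRCm38.p6, the assembly of mm10, for 8 of the 10 genes, not for *Penk* and *Crh*. Of each gene the 250 bases before the start were searched on both strands for the full element TGACGTCA and for its half-site TGACG, which is part of the full element. The last 120 of these bases are printed 5′ to 3′ on the gene's strand, with matches in capitals.
Sst, chr16:23890845-23890964, minus strand: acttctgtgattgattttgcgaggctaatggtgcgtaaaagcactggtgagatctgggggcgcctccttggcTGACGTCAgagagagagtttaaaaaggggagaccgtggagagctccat
Cartpt, chr13:99900684-99900803, minus strand: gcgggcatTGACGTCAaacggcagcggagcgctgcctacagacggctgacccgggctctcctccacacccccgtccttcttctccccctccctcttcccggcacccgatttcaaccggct
Vip, chr10:5639098-5639217, plus strand: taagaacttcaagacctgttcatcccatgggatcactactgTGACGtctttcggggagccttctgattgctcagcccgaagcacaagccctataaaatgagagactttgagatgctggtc
Cck, chr9:121495695-121495814, minus strand: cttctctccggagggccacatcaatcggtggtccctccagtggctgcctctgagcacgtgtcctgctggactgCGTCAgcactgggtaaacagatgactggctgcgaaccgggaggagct

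The full element was found in *Sst*, beginning 48 bases before the start (position -48), and in *Cartpt*, at position -112. Of 27025 genes with a RefSeq start, 1.77% held it in at least 1 window of this length. A half-site on either strand was found in 6 of the 8 genes, namely *Sst*, *Cartpt*, *Vip* (position -79), *Cck* (position -47), *Tac1* and *Adcyap1*, and not in the windows of *Npy* and *Pdyn*. Of all genes, 19.8% held one. A match says only that the letters are there. Of the 6 genes with a half-site, *Sst* and *Cck* had their highest group mean in +/+. *Vip*, *Tac1*, *Adcyap1* and *Cartpt* had theirs in Cre/+, and for *Cartpt* the means of +/+ and Cre/+ were close (195 and 196 TPM). The part of these elements in the levels was not tested.

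*Penk* stood apart in 1 library. It had 10.7, 9.11 and 6.98 TPM in +/+, 10.7, 9.49 and 9.66 TPM in Cre/+, and 8.78, 43.7 and 8.33 TPM in Cre/Cre. Cre/Cre replicate 2 was thus 4.7 times the median of the other 8 libraries, and the other 2 Cre/Cre libraries lay inside the range of +/+. The difference of Cre/Cre from +/+ was 0.70 (interval -0.78 to 2.19, adjusted p = 0.894 in limma) and it was -0.038 without that library. *Penk* lies on chromosome 4 of mm10, from 4133536 to 4138815 on the minus strand, and its first bases overlap the noncoding gene A830012C17Rik (4138321 to 4188703) on the opposite strand. Whether reads were counted by strand is not given in the sources used here, so the reads of the overlap may not be separated.

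The same library was high in other genes. By the ratio of TPM + 1 to the median of the other 8 libraries, *Penk* ranked 17 of 15198 genes and *Crhbp* ranked 33. *Crhbp*, which encodes the binding protein that holds CRH and is made by neurons and other cells, had 29.5 TPM there and 6.45 to 11.4 TPM in the others. The lens list summed to 1000.3 TPM there and to between 13.3 and 229 TPM in the others. Of its 9 genes, 6 were highest in that library, among them *Cryaa* at 481 TPM, whereas *Lim2* was listed at 0. By genotype, the lens sum was 144 to 200.1 in +/+, 13.3 to 166 in Cre/+ and 76.0 to 1000.3 in Cre/Cre. Genes named after their values were seen were also high in it. *Optc*, a protein of the vitreous made by the ciliary epithelium, had 55.7 TPM against at most 3.27 TPM. *Gja1*, a gap junction protein of glia and ciliary epithelium, had 14.1 TPM against at most 3.99 TPM. *Mfap4* and *Fbln1*, of the extracellular matrix, had 13.1 and 32.8 TPM against at most 0.942 and 3.54 TPM. The sums of the pigment epithelium list (43.5 TPM, others 22.0 to 93.4) and of the smooth muscle genes of the ciliary body and iris (11.4 TPM, others 7.77 to 12.7) were not high there. Of the 8 pigment epithelium genes, 2 were highest in that library, *Tyrp1* at 2.71 TPM and *Pmel* at 2.29 TPM. Of the 5 muscle genes, 0 were. The immediate early sum was 529 TPM against at most 395, and 6 of its 10 genes were highest in that library. The part of these genes in the level of *Penk* was not tested.

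**Figure D4:**
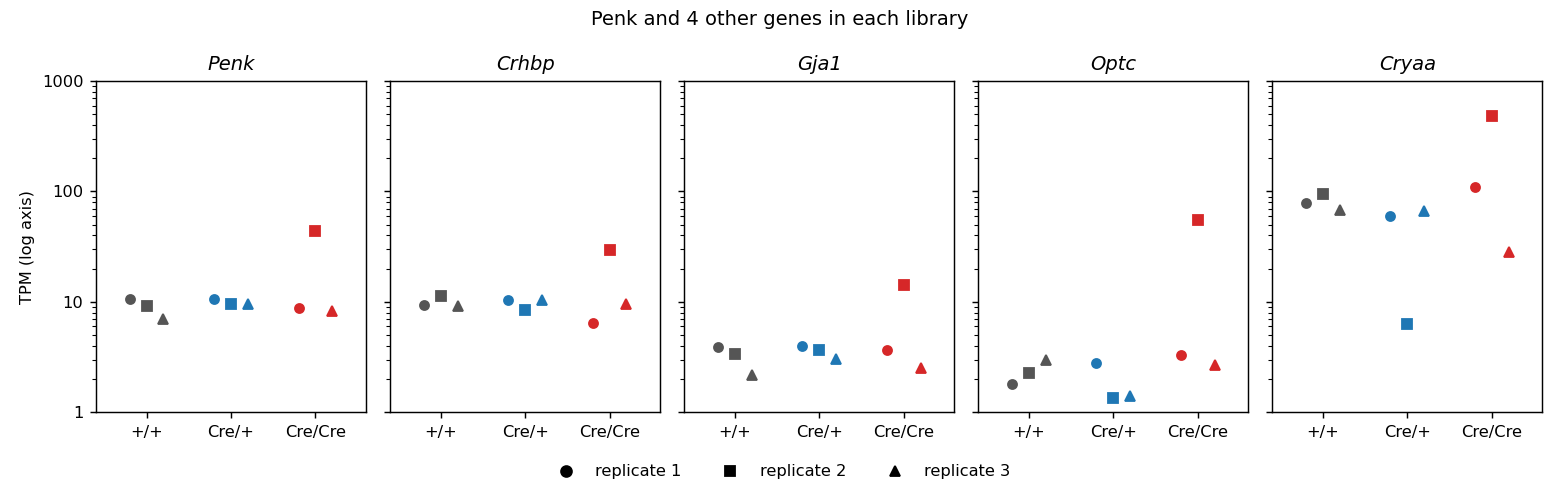
TPM on a log axis of *Penk*, *Crhbp*, *Gja1*, *Optc* and the lens gene *Cryaa* in the 3 libraries of each genotype, with symbols for replicates. Cre/Cre replicate 2 is the highest point of all 5 genes, at 43.7 TPM of *Penk* and 29.5 TPM of *Crhbp*.

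*Tac1* had 45.3, 36.0 and 42.7 TPM in +/+, 41.8, 53.8 and 47.1 TPM in Cre/+, and 39.3, 36.4 and 42.9 TPM in Cre/Cre. Cre/+ replicate 2 was the highest and all groups overlapped. *Adcyap1* had 3.70, 5.10 and 3.56 TPM in +/+, 4.34, 6.83 and 5.15 TPM in Cre/+, and 3.31, 4.32 and 3.87 TPM in Cre/Cre. Its Cre/Cre values lay just below its Cre/+ values, as did those of 7.23% of all genes tested. Both were higher in Cre/+ than in Cre/Cre at p under 0.05 before adjustment. The difference of Cre/Cre from Cre/+ was -0.26 for *Tac1* (interval -0.48 to -0.030) and -0.40 for *Adcyap1* (interval -0.79 to -0.014), with adjusted p = 0.74 for each in limma. Without Cre/+ replicate 2 these were -0.16 and -0.25, and without Cre/+ replicate 1 they were -0.34 and -0.53. Neither gene differed so from +/+ in either knock-in genotype.

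*Npy* and *Cartpt* gave the narrowest intervals. *Npy* had 31.3, 26.3 and 31.2 TPM in +/+, 25.5, 27.8 and 30.7 TPM in Cre/+, and 31.8, 28.5 and 30.9 TPM in Cre/Cre. *Cartpt* had 180.4, 191 and 213 TPM in +/+, 189, 196 and 202 TPM in Cre/+, and 179.6, 192 and 163 TPM in Cre/Cre. The groups of both genes overlapped throughout. The intervals of the difference from +/+ were -0.29 to 0.13 in Cre/+ and -0.17 to 0.25 in Cre/Cre for *Npy*. For *Cartpt* they were -0.17 to 0.19 and -0.30 to 0.052. Larger changes than these bounds lay outside the 95% intervals.

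*Pdyn* had 9.86, 14.3 and 11.9 TPM in +/+, 11.8, 14.3 and 11.5 TPM in Cre/+, and 9.22, 16.5 and 15.7 TPM in Cre/Cre. Its lowest and highest libraries were both Cre/Cre. The difference of Cre/Cre from +/+ was 0.16 (interval -0.27 to 0.58, adjusted p = 0.936 in limma), and it was 0.40 without Cre/Cre replicate 1 and 0.018 without Cre/Cre replicate 2. *Crh* had 4.38, 2.46 and 3.52 TPM in +/+, 1.16, 2.94 and 3.69 TPM in Cre/+, and 2.40, 2.51 and 2.87 TPM in Cre/Cre. Cre/+ replicate 1 was the lowest of the 9 and the groups overlapped. The difference from +/+ was -0.36 in Cre/+ (interval -0.90 to 0.19). It was -0.027 without that library and -0.59 without Cre/+ replicate 3.

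Of the 22 receptors of these peptides, 12 reached a mean of 1 TPM. *Vipr2*, which binds both VIP and PACAP, was the highest at 44.7 ± 4.03 TPM (SD, n = 9). *Tacr3*, the neurokinin B receptor, followed at 22.0 ± 2.58 TPM and *Crhr1*, the main CRH receptor, lay between 8.60 and 12.2 TPM. *Cckbr* (8.47 TPM), *Adcyap1r1* (6.45 TPM), *Tacr1* (6.20 TPM), *Sstr2* (4.54 TPM) and *Npy1r* (2.20 TPM) had levels below 10 TPM. The mean of *Vipr2* was above that of *Vip*, and the mean of *Tacr3* was above that of *Tacr1*, the receptor preferred by substance P. The opioid receptors were low, with *Oprm1* at 1.12 TPM, *Oprk1* at 0.104 TPM and *Oprd1* at 0.0711 TPM. *Npy2r* and *Tacr2* were listed at 0 in 6 libraries each, *Npy4r* in 5 and *Oprd1* in 4.

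**Figure D5:**
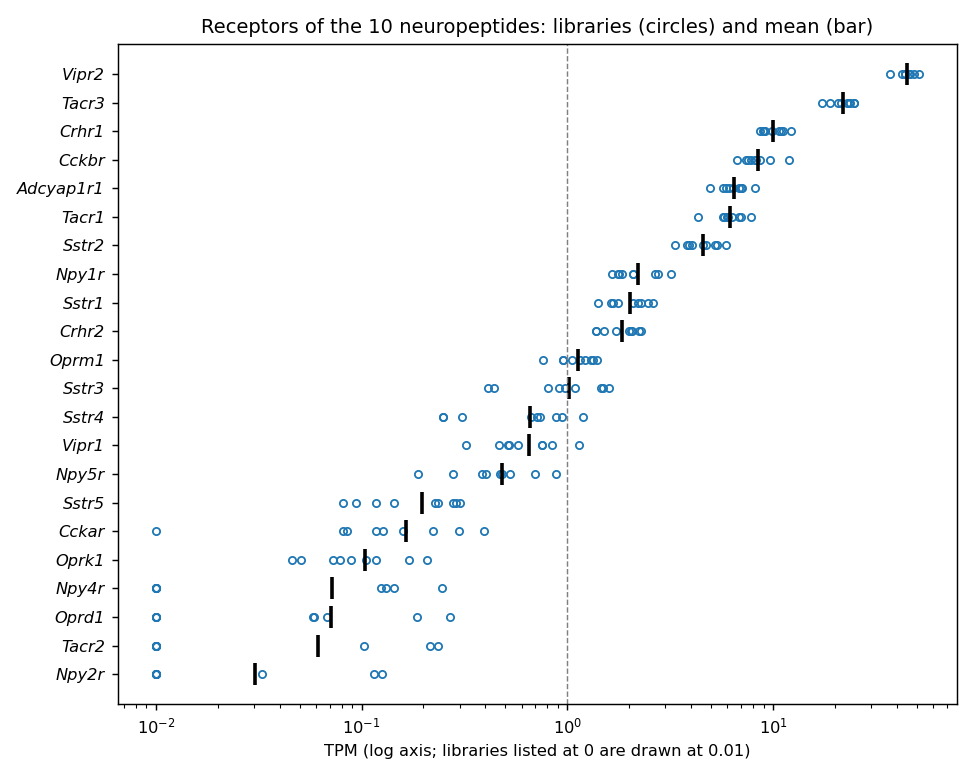
TPM (horizontal log axis) of the 22 receptor genes in each of the 9 libraries (circles) and as the mean (bar), with libraries listed at 0 drawn at 0.01 and a dashed line at 1 TPM. *Vipr2* and *Tacr3* stand at the top, with means of 44.7 and 22.0 TPM, and *Npy2r* is the lowest.

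No receptor passed the test in any comparison, and none had an unadjusted p under 0.05 against +/+. The median difference of the 12 was -0.050 in Cre/+ and -0.027 in Cre/Cre, and the latter changed sign, to 0.035 without Cre/Cre replicate 1 and to 0.016 without Cre/Cre replicate 2. Of the 12, 7 lay below 0 in Cre/Cre, and 6 with median-ratio scaling. The smallest p against +/+ was that of *Crhr1* in both knock-in genotypes, with -0.26 in Cre/+ (interval -0.52 to 0.013, adjusted p = 0.472 in limma) and -0.21 in Cre/Cre (interval -0.48 to 0.057, adjusted p = 0.814 in limma). *Cckbr*, the main brain receptor of cholecystokinin, differed from +/+ by -0.051 in Cre/Cre (interval -0.36 to 0.26). Its mean was 7.57 TPM in Cre/Cre and 9.97 TPM in Cre/+ (unadjusted p = 0.032, adjusted p = 0.74 in limma). It was the 1 receptor of 12 lower at p under 0.05 in that pair, beside 4.2% of all genes.

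The 16 genes for precursor processing and dense-core granules were all tested and 0 passed in any comparison. Their levels were high beside the precursors, with *Cpe*, the carboxypeptidase that trims peptides, at 1639 ± 79.4 TPM. The granule proteins *Chgb* and *Scg2* had 528 ± 40.0 and 499 ± 48.9 TPM. In Cre/+ against +/+, 5 of 16 lay below 0 with a median of 0.012, where 49.6% of all genes tested lay below 0. In Cre/Cre against +/+, 15 of 16 lay below 0 with a median of -0.11, where 57.7% of all genes tested lay below 0. With median-ratio scaling the count was 12 of 16, and without Cre/Cre replicate 1 it was 11 of 16, where 49.0% and 43.8% of all genes lay below 0. The smallest p was that of *Chga*, with 299, 306 and 301 TPM in +/+, 269.5, 299 and 284 TPM in Cre/+, and 255, 271 and 277 TPM in Cre/Cre (difference in Cre/Cre -0.17, adjusted p = 0.655 in limma). In Cre/+ it was that of *Pcsk1n*, which encodes proSAAS, an inhibitor of the convertase PCSK1. It had 138, 158 and 186 TPM in +/+, 124 TPM in each Cre/+ library, and 158, 141 and 131 TPM in Cre/Cre. The difference in Cre/+ was -0.36 (interval -0.57 to -0.15, adjusted p = 0.357 in limma).

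Of 6 genes for peptide breakdown and binding, 5 were tested and 0 passed. The highest were *Ece2* and *Ece1*, which encode endothelin-converting enzymes, at 42.3 and 35.9 TPM, followed by *Crhbp* with a mean of 11.6 TPM. The smallest p against +/+ was that of *Ace*, the angiotensin-converting enzyme, in Cre/+ (-0.22, adjusted p = 0.569 in limma) and that of *Ece2* in Cre/Cre (-0.17, adjusted p = 0.79 in limma).

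Of 30 other peptide precursors, 11 were tested, 0 passed, and 4 (*Nts*, *Ucn3*, *Pyy* and *Rln3*) were listed at 0 in all 9 libraries. *Tac2*, the neurokinin B precursor, was the highest at 47.6 ± 5.06 TPM, above the mean of *Tac1*, and its product is the ligand of TACR3. *Agrp* and *Nmb* followed with 13.9 and 9.09 TPM. *Nppa*, the atrial natriuretic peptide precursor, had the smallest p in both contrasts with +/+. It had 2.90, 4.85 and 6.39 TPM in +/+, 2.40, 3.27 and 1.53 TPM in Cre/+, and 2.32, 3.50 and 2.35 TPM in Cre/Cre. The differences were -0.73 (interval -1.26 to -0.21, adjusted p = 0.388 in limma) and -0.58 (interval -1.11 to -0.056, adjusted p = 0.679 in limma), and the groups overlapped. *Tac2* had 52.4, 48.6 and 56.5 TPM in +/+, 40.1, 44.3 and 51.0 TPM in Cre/+, and 46.3, 46.3 and 43.1 TPM in Cre/Cre. Its difference from +/+ was -0.22 in Cre/+ and -0.21 in Cre/Cre, with adjusted p = 0.429 and 0.703 in limma.

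For each precursor, the gene with the most similar pattern over the 9 libraries was sought among the 15197 other genes tested, by Pearson's r of log2(TPM + 1). With 9 libraries and this many genes, high values of r can arise for many genes, so they are given as a description. The closest genes were *Jakmip3* for *Vip* (r = 0.993), *Rcvrn* for *Cck* (r = 0.989), *Gja1* for *Penk* (r = 0.984), *Zfp467* for *Sst* (r = 0.975) and C130060C02Rik for *Pdyn* (r = 0.972). They were *Acp6* for *Cartpt* (r = 0.969), *Rtl6* for *Npy* (r = 0.969), *Yaf2* for *Adcyap1* (r = 0.967), *Sct* for *Tac1* (r = 0.96) and *Tm9sf4* for *Crh* (r = 0.944). *Rcvrn*, the photoreceptor calcium sensor recoverin, lay between 2096 and 2380 TPM, so its range was far narrower than that of *Cck*. *Sct* lay between 0 and 2.99 TPM, so its match to *Tac1* rests on low values. *Gja1*, like *Penk*, was highest in Cre/Cre replicate 2. By ranks, Spearman's rho was 0.783 for *Crh*, 0.883 for *Penk* and at least 0.933 for the others.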

How the data were processed

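A pair of retinas made up each sample, from mice of 3 genotypes, with genotype and replicate number taken from each library's label. Strand-specific libraries of poly(A) RNA were sequenced as paired reads of 150 bases. According to the submitters' processing notes and the paper's methods, the authors used Trimmomatic, FastQC, HISAT2 with the mm10 genome, SAMtools and StringTie. The authors also ran DESeq2, and versions and annotation are not given in the sources used here. The deposited TPM and FPKM are per transcript length and library, and the deposited coverage signal gives the average read depth per base of a gene. No read counts were used here, so counting error per gene cannot be had. The labels do not say which animals share a litter. For pairs of genotypes, the p-values rest on the spread between animals within genotypes, with 3 per genotype. That spread is pooled over all 9 libraries and drawn by limma toward that of genes of like level.

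Where several rows carried 1 gene name, their TPM were added. For the 15198 genes whose mean reached 1 TPM, log2(TPM + 1) of the 9 libraries was fitted jointly in limma 3.58.1 (R 4.3.3), using its trended and robust prior. Benjamini-Hochberg adjustment ran over all of them, and the limit was 0.05. The scripts were tested on simulated data. The 10 genes and all lists were chosen with earlier results of these data known. Genes named in the text were the 10 genes, and of each pathway list those called, the 3 highest by mean TPM and, for either knock-in genotype against +/+, the gene of smallest p. The gene most like each of the 10 was named too, as were *Rbpms*, *Xist*, Rn45s and marker genes. *Optc*, *Gja1*, *Mfap4*, *Fbln1*, and the receptors, processing and precursor genes beyond these were chosen after their values were seen. Sequences and starts are RefSeq's, on GRCm38.p6, and positions of genes are those of the deposited tables. Overlaps were read from GENCODE on GRCm38. Python 3.11.15 and matplotlib 3.10.9 made the plots.

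Alternatives were a pseudocount of 0.1, no filter, a mean TPM of at least 0.1, a replicate block, a covariate for *Xist*, only the genotypes compared, median-ratio scaling, FPKM, no robust prior, and each library left out. Chosen after seeing the data were coverage per aligned gigabase and the summed immediate early genes as a covariate.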

Additional observations from a re-analysis of the deposited data

How the results depend on the processing

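By limma, the number of the 10 genes called at the adjusted limit of 0.05 stayed at 0 in every comparison and setting run, except that FPKM in place of TPM gave 1 (*Cck*, Cre/Cre against +/+, -0.54), and the cause was not tested. The median difference of the 10 genes between Cre/Cre and Cre/+ was -0.053, and moved to -0.16 with FPKM and to -0.16 with coverage per aligned gigabase. The aligned gigabases were computed from coverage and FPKM, so coverage per gigabase is close to FPKM by construction and is not a separate check. With 1 library left out the median moved to between -0.21 and -0.034. Of the pathway lists, 0 genes were called in any setting. Differences near 0 changed sign. With *Xist* as a covariate they were 0.019 for *Adcyap1* and -0.068 for *Npy* in Cre/Cre against +/+, and -0.052 for *Crh* in Cre/Cre against Cre/+. With FPKM, *Cartpt* in Cre/+ against +/+ was -0.016 and *Npy* in Cre/Cre against +/+ -0.0085, and with coverage per aligned gigabase they were -0.013 and -0.0085. With 1 library left out, ranges that cross 0 were, in Cre/+ against +/+, -0.043 to 0.076 for *Cartpt* and -0.060 to 0.19 for *Pdyn*. In Cre/Cre against +/+ they were -0.15 to 0.0086 for *Tac1*, -0.15 to 0.058 for *Adcyap1*, -0.039 to 0.085 for *Npy*, -0.42 to 0.027 for *Vip* and -0.038 to 1.09 for *Penk*. In Cre/Cre against Cre/+ they were -0.26 to 0.30 for *Crh*, -0.053 to 0.10 for *Sst*, -0.046 to 0.34 for *Pdyn* and -0.20 to 0.93 for *Penk*. Whether the replicate numbers pair the samples is not given by the labels. Deviations of same-numbered libraries correlated between -0.12 and 0.13, and those of other pairs between -0.19 and 0.26. Such values cannot show whether libraries share a litter or batch, since single outlying libraries weigh on them. With the replicate block, 0 of the 10 genes were called in each comparison and the adjusted p of *Cck* in Cre/Cre against +/+ was 0.489. Alternatives that need counts, DESeq2 and edgeR's scaling, were not run. Of the order by level, at least 7 of 10 places stayed under each setting. Precision is limited by 3 libraries per genotype, most of all for *Crh*, which had the lowest coverage, and for *Penk*, where Cre/Cre replicate 2 sets the interval.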
